A study of Mus musculus with 42 samples.

Results

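Mouse D3 embryonic stem cells, a line taken from the blastocyst, were carried towards osteoblasts, the cells that form bone, and total RNA was sampled on days 4 to 6, on day 8 and on days 16, 25 and 30. The account concerns 112 genes that were read by the second of 2 Affymetrix chips only, MOE430B (430B), and whose signal was higher at the end of the course than at its start. They were taken from the 5744 genes that have a 430B probe set with 1 gene symbol and no probe set on the companion chip MOE430A (430A), so they make up 1.95% of the genes that could have been chosen. A gene was chosen where its mean log2 signal over days 25 and 30 was at least 10 and lay at least 2 above its day 4 mean, with all 6 arrays of days 25 and 30 above all 3 of day 4. In all 127 probe sets met these conditions, 12 genes had more than 1 of them, and the one with the highest mean stands for the gene. Days 4, 25 and 30 therefore chose the genes, and differences between them are given as a description with no test. Days 5, 6, 8 and 16 had no part in meeting these conditions, and the tests compare these days with each other. They entered only the mean over the 21 arrays that settled which probe set stands for the 12 genes. The spread used in the tests came from all 21 arrays, days 4, 25 and 30 included.

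All groups were unsorted cultures of the same cell line in DMEM, and the growth protocol of every sample lists ascorbic acid, beta-glycerophosphate and vitamin D3. Titles carry VD3 only from day 6, so a step from day 5 to day 6 cannot be told apart from that label. Each day had 3 RNA samples, and untreated or undirected cultures were not analysed here. Whether the 3 samples of a day were separate cultures is not stated in the labels, so the spread behind the p-values may be technical. The values are MAS5 signal, a summary of the brightness of the oligonucleotides of a probe set, scaled by the authors to a common trimmed mean of 1500 per 430B array, and all levels below are log2 of that signal. Median signal per array was 790.4 to 900.8, and precision is limited by the number of arrays. Days 6, 8 and 16 share 1 scan batch and 1 chip lot on 430B. Days 25 and 30 lie in other scan batches and lots than day 4, so the rise that chose the genes cannot be told apart from scan batch and chip lot. The log2 ratio of 3' to 5' signal of the Gapdh control was 2.70 ± 0.21 on day 4 (SD, n = 3), 3.85 ± 0.37 on day 25 and 3.28 ± 0.21 on day 30, and its part in the rise was not tested. It was 2.82 ± 0.73 on day 6 and 2.93 ± 0.18 on day 16.

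The 430B chip was designed to extend 430A and carries many transcripts that were known mainly from expressed sequence tags when it was made. Stem cells that leave pluripotency form several tissues at once in such cultures. Barrier epithelia make special ceramides and surface proteins, retinoic acid is cleared by enzymes of the Cyp26 family, and matrix cells secrete and remodel proteoglycans. Each of these processes has members among the 112 genes, but only 7 of the 112 belonged to any of 14 lists of tissue and pathway genes. By the reference annotation 104 members code for proteins, 7 are long noncoding RNAs and 1 is a transcribed pseudogene.

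The day 25 and 30 mean ranged from 10.11 to 16.40 (median 11.80). It lay between 10 and 11 for 37 members, between 11 and 13 for 42, and at 13 or more for 33. The rise from day 4 ranged from 2.01 to 5.16 on the log2 scale (median 2.67). At day 4, 46 members had at least 1 value under the 20th percentile of the chip (log2 7.67), among the dimmest signals, and 6 had all 3 values there. For such members a fold change is a lower bound, written "at least", in which each low value was raised to that percentile. Just inside the level threshold lay C430002N11Rik at 10.11 and Mamdc2 at 10.12, and just outside lay Krtap7-1 at 9.85 and Tafa2 at 9.83. Just inside the difference threshold lay Abca5 and Fkbp14, both with a rise of 2.01, and just outside lay Prrg1 at 1.98 and Txndc15 at 1.97.

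The largest rise was that of Apol7a, a gene of the apolipoprotein L family. It read 7.31, 6.41 and 6.62 on the day 4 arrays, 11.51, 11.73 and 12.49 on day 25 and 11.84, 11.51 and 12.54 on day 30, a rise of at least 19.3-fold. All its arrays up to day 8 lay between 5.67 and 7.89, and day 16 read 9.95, 10.04 and 7.84, so most of the increase came after day 8. Cers3, the ceramide synthase that makes the very long-chain ceramides of the skin barrier, read 5.49, 4.69 and 5.41 on day 4 and 9.93 to 10.79 on the 6 arrays of days 25 and 30 (at least 6.35-fold). It had reached that level by day 16, at 10.53, 10.69 and 10.15. Tmprss11e, a membrane-anchored serine protease, read 8.19, 6.52 and 6.59 on day 4 and 11.47 to 13.14 on days 25 and 30 (at least 19.4-fold). Its day 16 arrays were spread over 9.90, 9.86 and 6.31, wider than on either late day.

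Ifi27, an interferon-inducible gene of mitochondria and the nuclear envelope, read 7.54, 8.74 and 8.07 on day 4 and 11.24 to 14.02 late (at least 25.8-fold). Filip1l, whose product is a relative of a filamin-binding protein, read 10.30, 7.72 and 9.24 on day 4 and 13.18 to 13.91 late (22.6-fold). Ypel2, a member of the yippee family, read 12.12, 11.40 and 12.25 on day 4 and 15.62 to 16.89 late (22.2-fold). These 3 genes took different courses. Ifi27 stayed at 9.13 or below through day 8, Filip1l read 10.98 or more from day 6 on, and Ypel2 lay between 13.33 and 15.12 from day 6 to day 16.

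Zfp9, a zinc finger gene, read 8.27, 7.79 and 8.29 on day 4 and 11.70 to 13.09 late (20.6-fold). Ddah1, the enzyme that breaks down asymmetric dimethylarginine, an inhibitor of nitric oxide synthesis, read 7.69, 8.07 and 6.49 on day 4 and 10.74 to 12.17 late (at least 14.4-fold). Tcp11l2, related to a gene of the mouse t-complex, read 7.23, 6.82 and 9.95 on day 4 and 11.29 to 13.33 late (at least 13-fold). The noncoding gene 1700110I01Rik read 5.89, 8.23 and 5.22 on day 4 and 9.49 to 11.68 late (at least 7.38-fold). Its course was uneven, at 9.91, 5.48 and 10.06 on day 6 and 5.22, 5.81 and 9.86 on day 16. Among these 10 genes the gap between the highest day 4 array and the lowest late array was widest for Cers3 (4.43) and Apol7a (4.20) and narrowest for 1700110I01Rik (1.26).

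**Figure D1:**
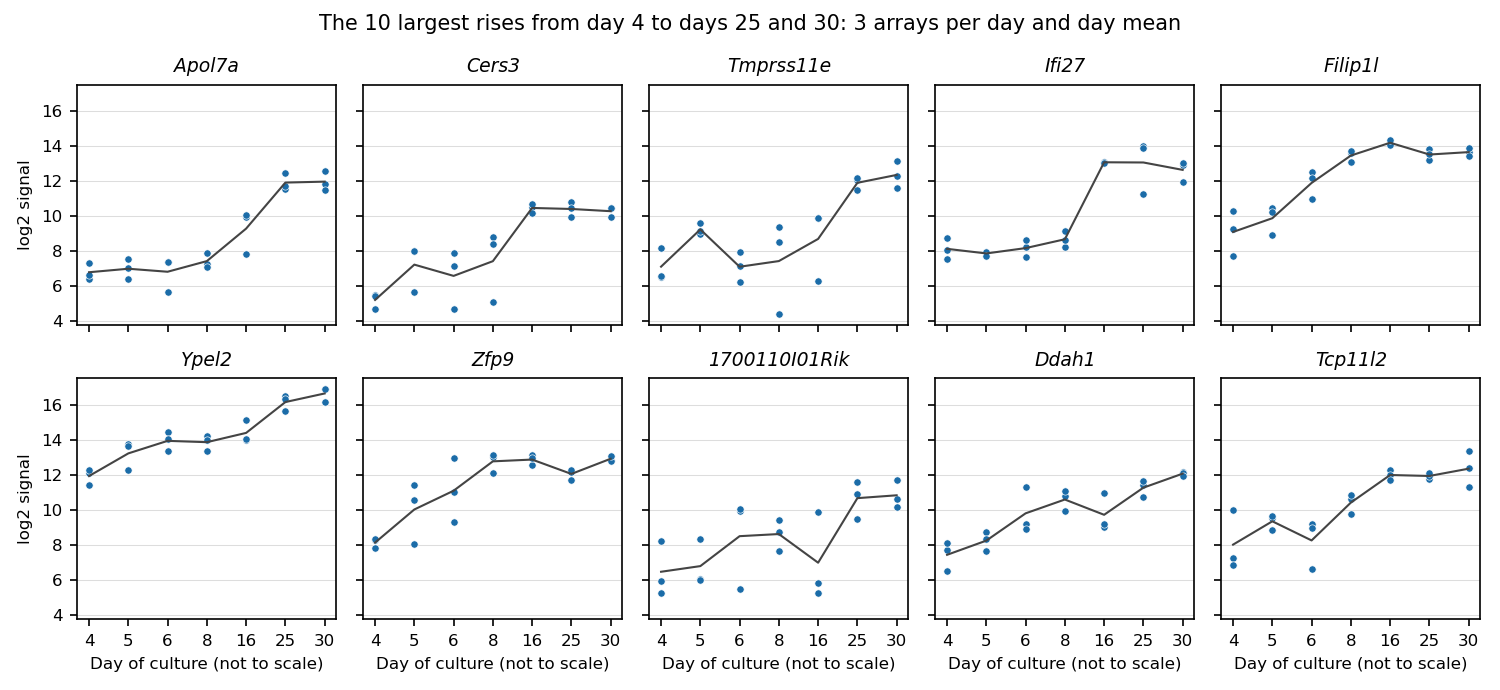
Log2 signal (y axis) by day of culture (x axis, not to scale) for the 10 members with the largest rise; points are the 3 arrays of a day and lines join the day means. Ifi27 and Cers3 were near their late level on day 16, whereas Apol7a, Tmprss11e and Ypel2 were still below theirs.

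The brightest late probe sets were those of Ypel2 (16.40), the membrane-anchored fibronectin domain gene Fndc3b (16.36), Arfip1, whose product binds small Arf GTPases (15.86), and the ubiquitin ligase gene Rnf217 (15.83). They were followed by Depp1 (15.23), Tvp23b, a gene of Golgi trafficking (15.20), the chloride channel-related gene Clic6 (15.15), the splicing regulator Mbnl2 (15.05), the dystrophin relative Drp2 (14.85) and Adamts9, a secreted protease that cleaves versican (14.82). Probe sets differ in brightness for the same amount of RNA, so this is an order of signals and not of transcript levels. Drp2 read 12.35, 12.48 and 12.37 on day 4 and stayed between 11.81 and 12.90 until day 16. It then read 13.02, 15.52 and 14.68 on day 25 and 15.48, 15.72 and 14.71 on day 30, so day 25 replicate 1 lay nearer to the early arrays than its 2 partners. Adamts9 read 12.96, 12.29 and 12.46 on day 4 and was already at 14.34, 14.78 and 12.81 on day 6.

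The share of each gene's rise that its earlier day means had reached shows when the increase took place. The median share was 15.6% on day 5, 39.4% on day 6, 51.8% on day 8 and 88.4% on day 16. At least 50% of the rise was reached and kept from day 5 by 13 members, from day 6 by 23, from day 8 by 20 and from day 16 by 41, while 15 members had not kept it by day 16. Of these 15, 12 were under 50% on each of days 5, 6, 8 and 16. The other 3 had been at 50% or more before and were under it on day 16: Il20rb, a cytokine receptor chain gene (68.0%, 68.4% and 66.4% on days 5, 6 and 8, 48.6% on day 16), the membrane adhesion gene Flrt3 (53.8% on day 8, 41.2% on day 16) and 1700110I01Rik (50.3% and 12.1%). The group from day 5 includes the histone methyltransferase gene Nsd3, the deubiquitinase gene Yod1 and the ceramide pathway gene Pnpla1. None of its 13 members was called higher on day 16 than on day 6. That is no separate result, because the day 6 and day 16 means also defined the group. The day 4 arrays of that early group were more spread (median SD 1.13) than those of the other groups (0.75 to 0.90). The 12 include Apol7a, Tmprss11e, Drp2 and the endothelial nitric oxide synthase trafficking gene Nostrin. The highest day mean fell on day 30 for 65 members, on day 25 for 17, on day 16 for 27 and on day 8 for 3.

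**Figure D2:**
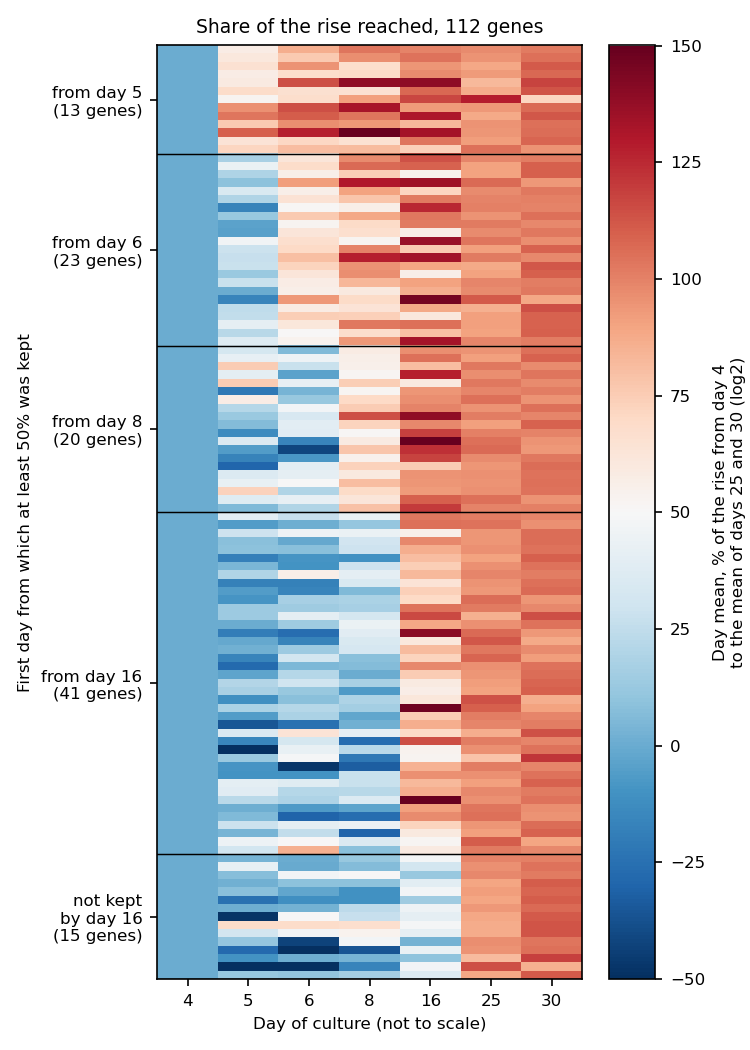
Day mean of each of the 112 genes (rows) on each day (columns) as a percentage of its rise from day 4 to the mean of days 25 and 30, with genes grouped by the first day from which at least 50% was kept. The 41 genes of the day 16 group form the largest block, and the lowest block holds the 15 genes that had not kept 50% by day 16, 3 of which had reached it on an earlier day.

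Day 16 was compared with day 6 as the main test, since neither day chose the genes and both lie in the same scan batch and chip lot. Of the 112 members 33 (29.5%) rose and 0 fell at an adjusted p under 0.05 (limma, two-sided, Benjamini-Hochberg over 18260 probe sets). Over all tested probe sets 1.18% were called higher and 0.575% lower. At an unadjusted p under 0.05, 63 members were higher and 0 lower, against 6.25% and 5.31% of tested probe sets. The median change of the members was 1.39, with quartiles of 0.61 and 2.42, against -0.01 for all tested probe sets. The change was above 0 in 99 of the 112, and in 70 members (62.5%) all 3 day 16 arrays lay above all 3 of day 6, against 9.56% of all tested probe sets. In 1 member all 3 lay below, against 9.36%. All 112 passed the filter on low signal over the 21 arrays, because late arrays count towards it, and 102 passed where only the arrays of day 6 and day 16 counted. The 95% interval of a member's change, before adjustment, reached a median of 1.17 to either side. Changes smaller than that could therefore mostly not be told from 0 with 3 arrays a day. After adjustment larger changes could also miss a call, such as that of Hcrtr1 (2.82, adjusted p = 0.0628, limma).

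**Figure D3:**
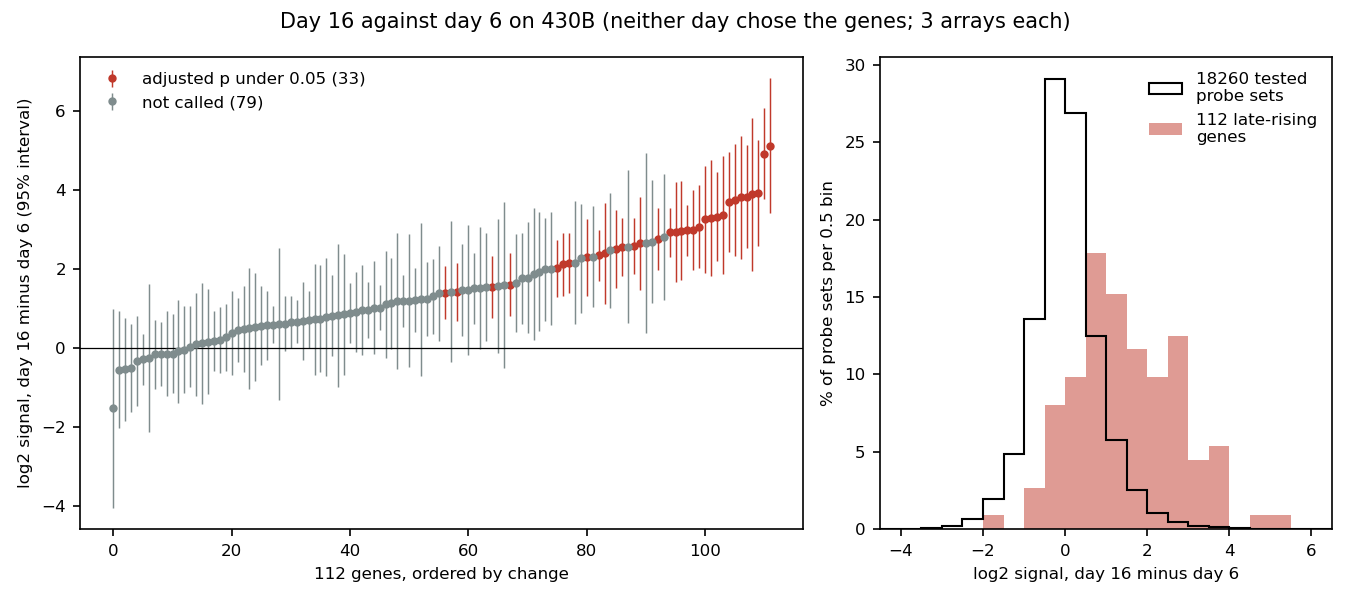
Left, change in log2 signal from day 6 to day 16 with its 95% interval (y axis) for the 112 genes ordered by change (x axis), with the 33 called genes in red. Right, the distribution of the change for these genes (filled) and for the 18260 tested probe sets (line), as a percentage per bin: the members centre on 1.39 and the tested probe sets on -0.01.

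Slc16a12, a transporter of creatine in the monocarboxylate carrier family, showed the largest called rise. It read 6.26, 8.08 and 6.62 on day 6 and 12.52, 12.17 and 11.60 on day 16, at least 19.6-fold higher (5.11, SE 0.82, adjusted p = 0.00119, limma). Ifi27 read 8.20, 7.65 and 8.64 on day 6 and 13.11, 13.10 and 13.01 on day 16, at least 29.9-fold higher (4.91, SE 0.55, adjusted p = 1.88e-05, limma). A second Ifi27 probe set, which was brighter, changed by 0.78 between the same days. In both genes the groups of the kept probe set were far apart and the day 16 arrays differed from each other by less than 1 unit. Slc16a12 was lower again late, at 9.82 to 11.28 on days 25 and 30, while Ifi27 was at 11.24 to 14.02.

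Ildr2, an immunoglobulin-like receptor of the angulin family found at cell corners, read 8.20, 8.11 and 8.63 on day 6 and 12.55, 12.75 and 11.40 on day 16 (15.1-fold, adjusted p = 0.00145, limma). Cers3 read 7.86, 7.16 and 4.70 on day 6 and 10.53, 10.69 and 10.15 on day 16 (at least 6.62-fold, adjusted p = 0.0289). The Cers3 call rested on few arrays: leaving out day 6 replicate 3 gave an adjusted p of 0.202, and it was lost in 7 of 19 alternative settings. Fam241a, a small gene to which no role is given here, read 8.28, 7.91 and 8.13 on day 6 and 12.04, 12.34 and 11.43 on day 16 (14.2-fold, adjusted p = 0.00145). Gsdmd, whose cleaved product forms the membrane pores of pyroptosis, read 6.40, 6.96 and 7.34 on day 6 and 10.23, 11.37 and 10.52 on day 16 (at least 8.2-fold, adjusted p = 0.00753). Without day 16 replicate 2 it was not called (adjusted p = 0.055, limma). The arrays of the 2 days did not overlap in any of these 4 genes.

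Tcp11l2 read 9.17, 8.96 and 6.59 on day 6 and 12.27, 11.96 and 11.72 on day 16 (at least 10.4-fold, adjusted p = 0.00398, limma). Ppp1r3b, which directs protein phosphatase 1 to glycogen, read 8.24, 9.46 and 8.97 on day 6 and 13.05, 12.85 and 11.84 on day 16 (12.9-fold, adjusted p = 0.00149). Olfm4, a secreted glycoprotein known in humans as a marker of intestinal crypt cells, read 9.53, 7.20 and 9.59 on day 6 and 12.51, 12.01 and 11.87 on day 16 (at least 9.2-fold, adjusted p = 0.0133). Olfm4 was no longer called when replicate 2 of day 6 was left out (adjusted p = 0.0932), nor when replicate 1 or 2 of day 16 was (0.0894 and 0.0518). Cyp26b1, which inactivates retinoic acid, read 8.48, 8.37 and 8.76 on day 6 and 11.59, 11.93 and 12.07 on day 16 (10.0-fold, adjusted p = 0.00138). Its early arrays lay between 7.44 and 8.82 except for day 4 replicate 1 at 10.57, and its late arrays between 11.85 and 13.31.

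**Figure D4:**
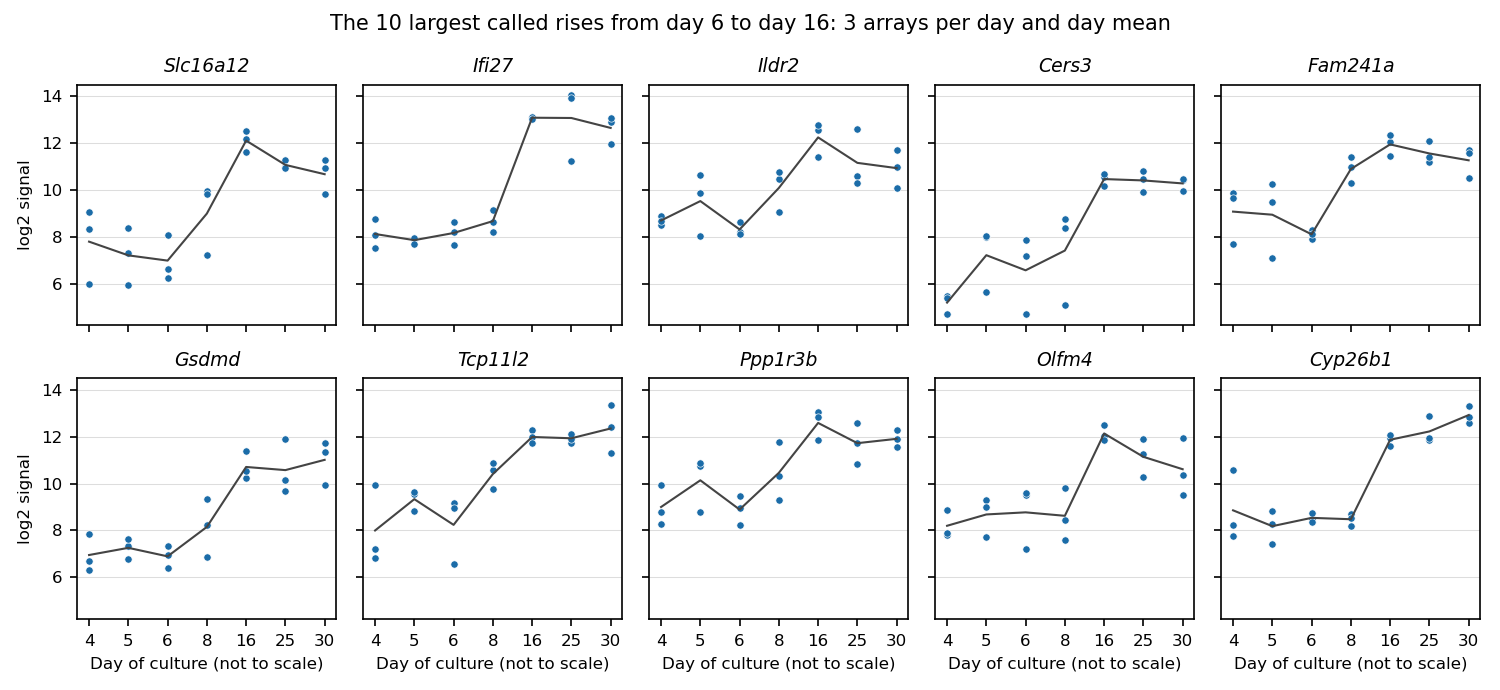
Log2 signal (y axis) by day (x axis, not to scale) for the 10 members with the largest called rise from day 6 to day 16; points are the 3 arrays of a day and lines join the day means. In all 10 the day 16 points lie above the day 6 points, and 7 of the 10 (all but Gsdmd, Tcp11l2 and Cyp26b1) have lower means on both day 25 and day 30 than on day 16.

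The smallest adjusted p between day 6 and day 16 was shared by Hpse, the heparanase that cuts heparan sulfate chains, and the giant scaffold gene Ahnak2 (both 5.56e-06, limma). Hpse read 11.15, 10.91 and 10.55 on day 6 and 14.04, 14.10 and 13.39 on day 16 (7.88-fold). Ahnak2 read 10.56, 11.15 and 11.26 on day 6 and 14.30, 13.92 and 13.51 on day 16 (7.58-fold). Of the 33 calls 19 were made under all 19 alternative settings, among them Ifi27, Slc16a12, Ildr2, Fam241a, Tcp11l2, Ppp1r3b, Cyp26b1, Hpse and Ahnak2. The number of members called was 24 with a variance model without trend and 23 to 31 when single arrays of day 6 or day 16 were left out.

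Promoter windows are shown for 4 of the 10 largest day 16 calls, as the starts of genes that were higher on day 16. They are the 4 with the largest rise from day 4 among those of the 10 that have an entry in the promoter table, so Ifi27 and Gsdmd are named only. Each runs from 250 bases before to 50 bases after the gene's start, in RefSeq for GRCm38.p6 and read 5′ to 3′ on the gene's own strand, and capitals mark motif matches on either strand. Cers3 is at chr7:66743254-66743553 (plus strand) and Tcp11l2 at chr10:84576697-84576996 (plus). Cyp26b1 is at chr6:84593761-84594060 (minus) and Slc16a12 at chr19:34747279-34747578 (minus).
Cers3: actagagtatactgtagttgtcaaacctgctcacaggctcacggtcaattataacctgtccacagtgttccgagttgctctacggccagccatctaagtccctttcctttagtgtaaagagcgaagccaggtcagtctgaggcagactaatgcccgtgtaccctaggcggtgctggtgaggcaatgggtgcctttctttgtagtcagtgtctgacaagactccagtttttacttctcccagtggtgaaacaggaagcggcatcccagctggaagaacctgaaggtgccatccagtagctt
Tcp11l2: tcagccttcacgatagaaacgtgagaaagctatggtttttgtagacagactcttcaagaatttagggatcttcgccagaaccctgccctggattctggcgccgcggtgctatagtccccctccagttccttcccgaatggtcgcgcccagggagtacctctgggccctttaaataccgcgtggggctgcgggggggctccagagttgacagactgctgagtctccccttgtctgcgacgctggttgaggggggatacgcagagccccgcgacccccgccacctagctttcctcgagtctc
Cyp26b1: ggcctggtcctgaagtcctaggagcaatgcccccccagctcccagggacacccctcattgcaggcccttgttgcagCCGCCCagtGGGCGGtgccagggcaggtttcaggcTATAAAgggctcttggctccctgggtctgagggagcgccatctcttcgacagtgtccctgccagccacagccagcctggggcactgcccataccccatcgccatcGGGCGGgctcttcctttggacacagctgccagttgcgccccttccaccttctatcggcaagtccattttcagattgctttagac
Slc16a12: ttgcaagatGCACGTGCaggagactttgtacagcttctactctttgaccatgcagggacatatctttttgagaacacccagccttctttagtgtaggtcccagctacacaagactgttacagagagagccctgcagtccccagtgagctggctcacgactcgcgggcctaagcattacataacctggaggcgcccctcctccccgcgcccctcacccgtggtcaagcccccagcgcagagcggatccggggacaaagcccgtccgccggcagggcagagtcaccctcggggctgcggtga

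In the Cyp26b1 window the capitals are 3 matches to the GC box GGGCGG and 1 to the TATA box TATAAA, and in the Slc16a12 window they are an E-box, CACGTG, overlapped by 2 matches to the hypoxia element ACGTGC. No motif of the 8 searched was found in the windows of Cers3 and Tcp11l2. Of the 112 members 85 had a promoter in the table. A GC box was held by 58.8% of these, by 46.5% of the 4442 promoters of genes on 430B only and by 35.9% of all 27025 promoters. For the TATA box the shares were 3.53%, 9.23% and 14.2%, and for CCAAT they were 27.1%, 38.4% and 37.9%. The remaining shares, in members and in genes on 430B only, were 8.24% and 8.40% for the E-box, 7.06% and 7.27% for the hypoxia element and 5.88% and 6.33% for the AP-1 site TGANTCA. The GATA motif AGATAA was held by 3.53% and 8.76% of these promoters, and the cyclic AMP element TGACGTCA by 0% and 2.59%. Median GC content was 60% in member promoters and 57% in those of genes on 430B only. These matches are descriptions of letters in a window and not of binding.

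Between day 8 and day 16, 16 members rose (14.3%) and 0 fell at an adjusted p under 0.05, against 0.345% and 0.0712% of all tested probe sets. Unadjusted, 47 were higher and 1 lower, against 4.41% and 3.42% of tested probe sets. In 57 members the day 16 arrays lay above those of day 8 without overlap and in 4 below, against 7.57% and 7.37%. Counting only the arrays of day 8 and day 16, 100 members passed the filter on low signal. The 12 that did not are included in these counts. Hpse had the smallest adjusted p: it read 11.49, 10.67 and 10.72 on day 8 against 14.04, 14.10 and 13.39 on day 16 (7.39-fold, adjusted p = 4.98e-05, limma). Ifi27 read 9.13, 8.23 and 8.65 on day 8 and showed the largest change (21.2-fold, adjusted p = 0.000296). Cyp26b1 read 8.71, 8.18 and 8.55 on day 8 (10.4-fold below day 16, adjusted p = 0.00259). Vtcn1, which encodes the T cell inhibitor B7-H4, read 6.82, 7.17 and 6.48 on day 8 and 10.36, 10.67 and 10.54 on day 16 (at least 7.23-fold, adjusted p = 0.0243). Olfm4 read 8.46, 9.82 and 7.60 on day 8 (at least 11.2-fold below day 16, adjusted p = 0.0258). In all 5 genes the day 16 arrays stood clear of those of day 8. The 5 members called under all 19 alternatives were Ifi27, Hpse, Sbsn, Upk1b and Cyp26b1, and the calls of Vtcn1 and Olfm4 were lost without any 1 of the 6 arrays, except that Olfm4 kept its call without day 8 replicate 2. The number called was 8 without the variance trend and 5 to 11 with single arrays left out. It fell by over 1.5 times without replicate 2 or 3 of day 8 (8 and 6) and without replicate 1, 2 or 3 of day 16 (6, 5 and 9).

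Upk1b, a uroplakin of the urothelial surface, rose between day 5 and day 6, as did Tpbgl, a leucine-rich repeat gene related to the trophoblast glycoprotein. They were the only 2 of 18260 probe sets called in that comparison (0.011% higher and 0% lower). Unadjusted, 21 members were higher and 1 lower, against 2.6% and 2.82% of tested probe sets. In 19 members the day 6 arrays lay above those of day 5 without overlap and in 1 below, against 5.19% and 6.33%. Where only the arrays of day 5 and day 6 counted, 79 members passed the filter on low signal and 33 did not. The counts of members include those that did not pass, so part of them rest on dim signals. Upk1b read 8.79, 8.43 and 9.16 on day 5 and 10.87, 11.46 and 11.05 on day 6 (5.05-fold, adjusted p = 0.0199, limma). Tpbgl read 9.15, 9.33 and 10.23 on day 5 and 11.93, 11.87 and 12.21 on day 6 (5.39-fold, adjusted p = 0.0435). The arrays of the 2 days did not overlap in either gene, and day 5 replicate 1, the only day 5 array in the scan batch of day 6, lay below all 3 day 6 arrays in both. On day 4, however, Tpbgl read 10.86, 9.74 and 12.10, so replicate 3 of that day was as high as day 6. With scan batch as a fixed block, neither gene was called (adjusted p = 0.107 for both). Without replicate 2 of day 5, or without replicate 1 or 2 of day 6, 0 members were called.

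From day 6 to day 8, 0 members were called by limma in either direction, and over all probe sets 0.0164% were called higher and 0% lower. At an unadjusted p under 0.05, 25 members were higher and 2 lower, against 3.07% and 2.51% of tested probe sets. Without overlap, 20 members lay above and 3 below, against 5.87% and 5.39%. The smallest adjusted p belonged to Ahnak2 (1.45, SE 0.30, adjusted p = 0.171) and Fam241a (2.78, SE 0.63, adjusted p = 0.257). Ahnak2 read 12.74, 12.58 and 11.99 on day 8, above all its day 6 arrays, and Fam241a read 11.40, 10.98 and 10.28. The transcriptional cofactor gene Vgll3 read 9.59, 9.38 and 9.73 on day 6 and 11.79, 11.47 and 11.53 on day 8, with an adjusted p of 0.52.

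Days 25 and 30 both chose the genes, so their difference is a description with no test. The median change of the members from day 25 to day 30 was 0.22. Sirpb1a, a signal-regulatory receptor gene, read 11.62, 10.07 and 11.44 on day 25 and 10.10, 9.07 and 10.04 on day 30, a change of -1.30 in the mean. Drp2, whose arrays are given above, changed by 0.90. Both genes overlapped between the 2 days.

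The groups by role were put together after the values were seen, so nothing is read from the count of a group, and each stands beside 29.5% called higher among all members and 1.18% among all tested probe sets. The genes of lipid metabolism were Cers3, the sphingomyelin synthase gene Sgms2, the lipid phosphatase gene Plpp6 and Pnpla1, which helps to make the acylceramides of the skin. Between day 6 and day 16, 1 of the 4 rose, and the day means of the group changed by -0.14 to 3.89. Sgms2 read 8.54, 9.20 and 6.82 on day 6 and 10.75, 10.79 and 11.09 on day 16 (adjusted p = 0.0718, limma). Pnpla1 read 11.43, 10.32 and 9.69 on day 6 and 10.22, 10.10 and 10.70 on day 16, so its arrays overlapped.

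Among 17 genes of the cell surface 4 rose from day 6 to day 16: Ildr2, the orphan receptor gene Gpr176, Mpzl3, an immunoglobulin-domain gene known from mice with skin and hair defects, and Upk1b. The median change of the group was 1.13. Gpr176 read 8.61, 8.86 and 10.27 on day 6 and 13.04, 12.81 and 11.74 on day 16 (9.74-fold, adjusted p = 0.0145, limma). Mpzl3 read 8.48, 8.17 and 9.45 on day 6 and 11.95, 11.97 and 11.10 on day 16 (7.84-fold, adjusted p = 0.00955). Upk1b moved on from its day 6 level to 14.15, 13.69 and 13.22 on day 16 (5.88-fold, adjusted p = 0.000202). The adhesion receptor gene Adgrg6, which Schwann cells need for myelination, read 10.34, 9.98 and 9.54 on day 6 and 12.67, 12.22 and 10.99 on day 16 without passing the test (adjusted p = 0.18). Flrt2 and Flrt3, which encode related leucine-rich guidance receptors, were not called and differed in course. Flrt2 was at 14.34, 14.47 and 14.27 by day 8, whereas Flrt3 read 12.13, 13.06 and 13.64 on day 16 and 14.84, 14.91 and 14.90 on day 30.

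Of 8 genes for secreted and matrix proteins 4 rose from day 6 to day 16, namely Hpse, Olfm4, Sbsn and the neurotrophic factor gene Ndnf. Sbsn, suprabasin of the upper epidermal layers, read 10.71, 11.41 and 12.02 on day 6 and 14.03, 14.47 and 13.93 on day 16 (6.8-fold, adjusted p = 0.000174, limma). Ndnf read 11.26, 10.49 and 11.15 on day 6 and 12.95, 12.68 and 11.91 on day 16 (2.92-fold, adjusted p = 0.0313), a call made in 13 of 19 alternatives. A second Ndnf probe set, dimmer at a mean of 7.70 over the 21 arrays, changed by -2.62 between the same days. Bmper, which binds bone morphogenetic proteins outside the cell, read 12.23, 11.81 and 12.37 on day 6, 13.69, 13.42 and 13.03 on day 16 and 15.03, 14.66 and 14.81 on day 30. It did not pass the test between day 6 and day 16 (adjusted p = 0.21), although the arrays did not overlap. Adamts9 was not called, and its day 16 arrays at 13.85, 13.86 and 13.77 lay within the range of day 6.

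Of 4 genes of cell death, interferon response or protease inhibition, unlike processes put in 1 group for description, 3 rose from day 6 to day 16: Ifi27, Gsdmd and Depp1, a regulator of autophagy under FOXO control. Depp1 read 10.83, 12.30 and 10.94 on day 6 and 14.11, 15.05 and 13.86 on day 16 (7.92-fold, adjusted p = 0.00138, limma). The fourth, the cystatin A gene Csta1, read 5.39, 6.58 and 8.20 on day 6 and 11.19, 10.59 and 6.38 on day 16, so 1 day 16 array was as low as day 6 (adjusted p = 0.312).

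Of 9 other enzymes 5 rose: Ppp1r3b, Cyp26b1, the N-glycan branching enzyme gene Mgat4a, the mitochondrial folate enzyme gene Aldh1l2 and the nucleotide hydrolase gene Nudt18. Mgat4a read 8.88, 10.12 and 9.02 on day 6 and 12.62, 12.68 and 11.92 on day 16 (8.39-fold, adjusted p = 0.00145, limma). Aldh1l2 read 11.41, 10.98 and 10.92 on day 6 and 13.92, 14.11 and 13.03 on day 16 (6.0-fold, adjusted p = 0.000136). Nudt18 read 10.69, 10.89 and 10.73 on day 6 and 13.18, 13.30 and 13.36 on day 16, the least spread of the 3 genes (5.69-fold, adjusted p = 0.0053). Ddah1 was not among the calls: it read 11.32, 9.17 and 8.88 on day 6 and 9.01, 10.96 and 9.15 on day 16.

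Of 8 transporter and channel genes 4 rose, namely Slc16a12, the serine incorporator gene Serinc2, the phospholipid flippase gene Atp8b1 and Abca5, a lysosomal transporter of the ABC family. Serinc2 read 8.59, 8.14 and 9.18 on day 6 and 12.03, 11.10 and 11.56 on day 16 (7.63-fold, adjusted p = 0.011, limma). Atp8b1 read 9.32, 9.17 and 9.38 on day 6 and 12.06, 11.64 and 11.37 on day 16 (5.27-fold, adjusted p = 0.0429). The Atp8b1 call was made in only 7 of 19 alternatives, while that of Abca5 (4.05-fold, adjusted p = 0.00229) was made in all of them. Slc16a9, a relative of Slc16a12, was not called and read 10.50, 10.81 and 10.55 on day 6 and 10.38, 10.99 and 10.03 on day 16. Over all 74 tested solute carrier genes on 430B only, 3 were called higher and 2 lower.

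Of 10 genes of transcription, chromatin and RNA 3 rose: Mbnl2, Vgll3 and the methyl-CpG binding zinc finger gene Zbtb4. Mbnl2 read 12.52, 12.32 and 12.23 on day 6 and 14.79, 14.78 and 14.52 on day 16 (5.07-fold, adjusted p = 0.000138, limma), with little spread on either day. Zbtb4 read 11.56, 11.36 and 11.11 on day 6 and 13.06, 12.69 and 12.55 on day 16 (2.68-fold, adjusted p = 0.038), a call made in 10 of 19 alternatives. Zfp9 was not called and read 11.01, 12.96 and 9.28 on day 6 and 13.10, 12.55 and 12.95 on day 16. In 9 of the 10 genes the day 16 arrays did not overlap those of day 6, against 62.5% of all members and 9.56% of all tested probe sets that lay above. It was the highest such share of any role group, and the lowest was 1 of 8, for the noncoding members. Nothing is read from either, because the groups were put together after the values were seen.

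Of 20 genes of signalling, scaffolds and trafficking 2 rose, Ahnak2 and Filip1l (4.92-fold, adjusted p = 0.0101, limma). Filip1l read 12.50, 12.19 and 10.98 on day 6 and 14.17, 14.04 and 14.36 on day 16. In 1 gene of this group, the phosphatase gene Ubash3b, the day 16 arrays lay below all 3 of day 6. Of 8 genes of ubiquitin and protein folding 1 rose, Fkbp14, an isomerase of the endoplasmic reticulum that acts in collagen folding. It read 12.48, 12.62 and 11.32 on day 6 and 14.10, 13.94 and 13.17 on day 16 (3.03-fold, adjusted p = 0.0289). Rnf217 was not called and read 14.77, 14.44 and 14.45 on day 6 against 15.10, 15.43 and 15.14 on day 16. The 16 members to which no role is given here include Fndc3b, Tcp11l2, Fam241a, Smim22 and Mab21l3, which rose. Fndc3b read 15.18, 15.26 and 14.40 on day 6 and 16.37, 16.40 and 16.29 on day 16 (2.64-fold, adjusted p = 0.0234).

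The 8 noncoding members held 1 call. Mir22hg, the host transcript of the microRNA miR-22, read 10.79, 10.52 and 9.56 on day 6 and 11.99, 12.94 and 12.27 on day 16 (4.33-fold, adjusted p = 0.00348, limma), a call made in all 19 alternatives. It had read 8.69, 9.34 and 8.16 on day 4 and 10.40, 9.82 and 10.31 on day 5, so its arrays had already left the day 4 range by day 5. The arrays measured the host and not the mature microRNA, whose arms are shown with the seed, bases 2 to 8, in capitals (RefSeq, GRCm38.p6, plus strand, chr11:75463734-75463755 and chr11:75463772-75463793).
miR-22-5p: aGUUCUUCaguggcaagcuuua
miR-22-3p: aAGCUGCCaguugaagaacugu

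The seeds of the 2 arms differ. Rmst, a long noncoding RNA of neural differentiation, read 8.32, 10.36 and 6.96 on day 6 and 10.03, 10.41 and 9.81 on day 16, which overlap. Across the 20 tested noncoding genes of the list to which both belong, 1 was called higher and 1 lower between day 6 and day 16.

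The lists of tissue and pathway genes had few members among the 112. Of 37 genes of the matrix list found on 430B only, 35 were tested, and 5 were called higher on day 16 than on day 6 and 0 lower. The members on that list are Fndc3b and Adamts9, although Fndc3b is membrane-anchored and was given no role above. The lists of endoderm (Nostrin), mesenchyme (Vgll3) and signalling genes (Bmper) held 1 member each. Those of epithelial, macrophage, endothelial, neural, muscle, lysosome, stress, cell division and pluripotency genes held 0. Of 19 tested cell division genes 3 were called lower and 0 higher, and of 6 tested pluripotency genes 2 were called lower and 0 higher, with medians of -0.83 and -1.45. Over the 4931 tested genes on 430B only, 92 (1.87%) were called higher and 43 (0.872%) lower, so 33 of the 92 were members. In these counts a member was read by its kept probe set, picked for a large rise, and any other gene by its brightest tested one. The members and the other genes were therefore not read alike. With the brightest probe set of each gene taken first, 89 genes met the rule.

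Marker genes of other cell types on 430A moved over the same days. Between day 6 and day 16 the summed signal of 8 of 8 fibroblast markers went from 8111 to 51095 over the arrays of day 6 to 180197 to 300566 on day 16. That of 10 of 10 epithelial markers went from 83473 to 96825 to a range of 108704 to 143040, and 7 of the 10 had a higher mean on day 16 and 3 a lower one. Krt14 had a mean log2 signal of 7.15 on day 6 and 12.29 on day 16 and Krt19 of 12.02 and 14.82, whereas Krt8 stood at 15.38 and 14.59, Krt18 at 13.90 and 13.73 and Cldn6 at 13.20 and 13.14. For 12 of 12 endoderm markers the ranges were 25800 to 80923 and 67212 to 163205, and for 8 of 8 macrophage markers 4629 to 5774 and 12294 to 34839. Of the endoderm markers 10 had a higher mean on day 16 than on day 6 and 2, Sox7 and Gata4, a lower one. Muscle markers (7 of 7) spanned 20667 to 176157 on day 6 and 51733 to 88961 on day 16, and 2 had a higher mean on day 16 and 5 a lower one. Endothelial markers (6 of 6) went from 8238 to 15980 on day 6 to 3731 to 5784 on day 16, neuron markers (5 of 5) from 2366 to 3931 to 1428 to 1869, and pluripotency markers (6 of 6) spanned 3747 to 22551 and 2295 to 7658. Their part in the rise of the members was not tested, and in bulk RNA more cells of a type and more RNA per cell cannot be told apart.

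Of 10 osteoblast markers 7 had a 430A probe set with 1 gene symbol. Their sum went from 17793 to 26842 on day 6 to 61540 to 108130 on day 16. That sum was carried by the collagen gene Col1a1 (13.17 and 15.33 as day means) and Sparc (13.46 and 15.44), which fibroblasts also express. Of the more specific genes, Sp7 stood at 10.18 and 10.10 and Ibsp at 6.93 on both days. Dmp1 stood at 7.22 and 7.13 and Phex at 5.61 and 6.03. Alpl was at 8.82 and 8.65, below its day 4 mean of 10.01. Runx2, Bglap and Spp1 had no 430A probe set with 1 gene symbol in the annotation used and were left out. Whether the chip read them was not examined. Phex lay under the 20th percentile of 430A signal on 17 of 21 arrays, Dmp1 on 8, Ibsp on 5 and Alpl on 1.

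**Figure D5:**
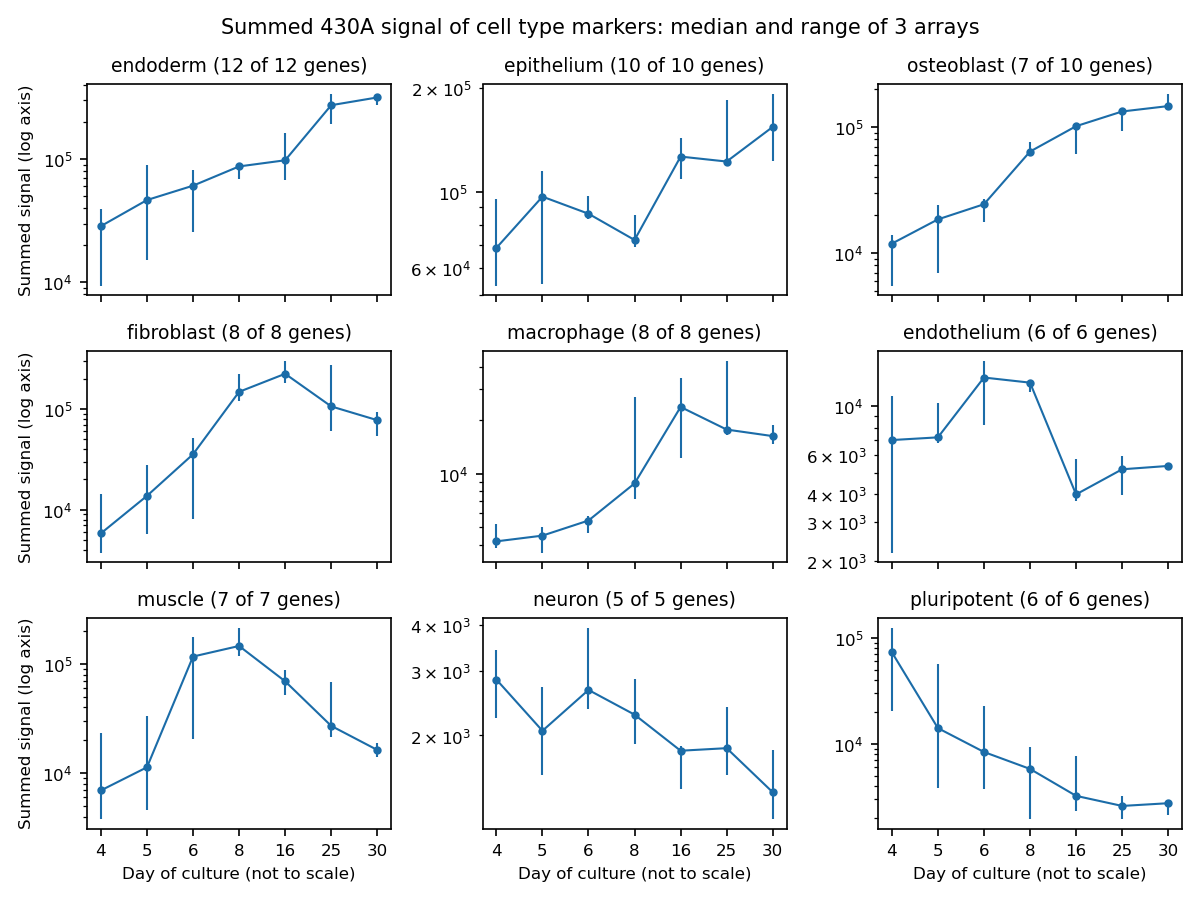
Summed 430A signal (y axis, log scale) of the markers of 9 cell types by day (x axis, not to scale); points are the median and bars the range of 3 arrays, and titles give how many markers were measured. Fibroblast, epithelial, macrophage and osteoblast sums were higher on all day 16 arrays than on all day 6 arrays, and endothelial and neuron sums lower.

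Other 430B probe sets exist for 59 of the genes, 106 in all, and read the same RNA with other probes. Of these 83 had a higher mean on the late days than on day 4, 50 by 1 or more, and 15 met the full rule, while 2 were lower by 1 or more. Their median rise was 0.97, against 2.51 for the kept probe sets of the same genes, which were picked for a large rise. The gap was widest for Ddah1, whose 4 other probe sets changed by -0.05 to 1.88 against 4.24, and for Umad1, whose others changed by -0.24 and 1.41 against 4.02. A second Ifi27 probe set stood at 11.98 on day 4 and changed by 0.61, against 4.73. Mgat4a had another that changed by -0.38 against 3.43, and the 2 probe sets that were lower by 1 or more, with changes of -1.08 and -1.31, both belong to Marf1, a regulator of oocyte RNA, whose kept probe set changed by 2.07. Upk1b had 3 further probe sets, of which 1 changed by more than the kept one (4.85 against 3.44) and 2 by less (1.70 and 0.99). Between day 6 and day 16 the other probe sets of called genes also varied. They changed by -2.62 for Ndnf, -0.16 for Mgat4a, -0.01 for Smim22, 0.06 for Fkbp14 and 0.23 for Abca5. Other changes were 0.98 for Fndc3b, 1.89 for Fam241a, 2.25 for Depp1 and 2.26 to 2.75 for Upk1b. For Ildr2 they were 0.71 and 2.25, for Sbsn 2.35 and 2.85 and for Vgll3 2.63 and 2.81. Mbnl2 had -0.69 to 2.22 and Zbtb4 0.47 to 3.15. Over the member genes 102 of the 112 kept probe sets have plain identifiers. Of the rest, 4 carry the suffix of probe sets shared between transcripts (Ifi27, Adgrg6, Clic6 and Arfip1) and 2 that of probes that may match other sequences (Smim22 and Rnf217), so signal from related transcripts cannot be separated there.

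The mirror rule, which asks for a fall of the same size from day 4, found 70 genes on 430B only. Of these 0 were called higher and 8 lower (11.4%) on day 16 than on day 6, with a median change of -1.10. Applied to 430A, the rule for rising genes found 430 of 12393 genes (3.47%), of which 270 (62.8%) were called higher and 0 lower between day 6 and day 16. The background on that chip was also higher, at 6.76% called higher and 4.50% lower, so the shares of the 2 chips are not on 1 scale.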

How the data were processed

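RNA from 21 samples was hybridised to 430A and 430B. The submitters' processing notes name MAS5, whose version is not given in the sources used here, and the deposited signal is linear. Trimmed by 2% at either end, every 430B array had the same mean, so the authors had scaled the arrays to each other. Symbols are those of the platform table, and all 112 members were found by Entrez identifier among the RefSeq genes of GRCm38.p6.

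Log2 signal with no offset was fitted on 430B with limma 3.58.1 (R 4.3.3), with day as a factor over 21 arrays (14 residual degrees of freedom) and eBayes with a trend. Probe sets brighter than the 40th percentile of the array on 3 or more arrays were tested, 18260 of 22575. Adjusted p-values are two-sided, by Benjamini-Hochberg over these. The fit was tested on simulated data, drawn as independent normal values with the mean and spread of each tested probe set. On day 16, 200 of the 18260 were changed by a known amount. For day 16 with day 6 the fit called 8% of simulated log2 changes of size 1 and 40% of size 2. Of those of size 3 it called 68% and of size 4 86%, and it called 4 unchanged probe sets. The shares depend on these settings and may differ in the real data. Day 30 with day 25 was planned as a test and is given as a description, since both days chose the genes. Alternatives changed scaling, offset, filter, variance model, RNA quality covariate, scan batch, replicate block and single arrays. Blocks on chip lot and on the number after Osteo in the array descriptions were chosen after seeing the data. Whether this number counts cultures is not stated. It was 4 for replicate 3 of days 8 and 16, where the titles give 3.

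The members and lists were chosen with earlier results of these data known, and the role groups and the genes named within them after their values were seen. Otherwise named are the 10 largest rises, the 10 highest late levels, the 10 largest calls of day 16 with day 6, up to 5 calls of each other comparison (or the 2 smallest adjusted p), genes nearest each threshold, and genes whose other probe sets differ most. Promoters and microRNAs came from RefSeq tables. Residuals of same-numbered samples were little correlated (median 0.0159, range -0.0432 to 0.114), against a median of -0.00524 for samples with other numbers. Replicate numbers were therefore not taken as pairs in the main fit. The correlations were 0.0728, 0.0147 and 0.0995 for days 5 and 6, and -0.0188, -0.0425 and 0.0225 for days 6 and 16.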

Additional observations from a re-analysis of the deposited data

How the results depend on the processing

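Of 401 values of single named genes under the alternatives 357 kept their side of the threshold, 43 lost the call and 1 gained it, and none changed sign. The 357 are not all kept calls. They include values of genes not called in the main fit: Ahnak2 and Fam241a (day 8 with day 6) and Sirpb1a and Drp2 (day 30 with day 25). All 43 losses fell on genes that the main fit called. For day 16 with day 6, 23 to 36 members were called higher and 0 lower in every setting, with 34 under the replicate block, which changed no result of that comparison by over 1.5 times. Over all tested probe sets the variance model without trend called 145 in place of 321, and leaving out single arrays 126 to 252. For day 6 with day 5 the 2 calls became 1 with quantile normalization, with the filter on the 2 days or with the Gapdh covariate, 1 with scan batch as a fixed block (a different gene, Nudt18, with both calls lost), 0 with no filter, with only the 2 days fitted or without the trend, 3 with the replicate block, and 0 to 3 with single arrays left out. For day 8 with day 6, 1 member (Ahnak2, adjusted p = 0.0227, limma) was called with the number in the array descriptions as a block. Over all probe sets, day 6 with day 5 called 0 to 18 over the settings, in place of 2. Day 8 with day 6 called 0 to 9, in place of 3. For day 16 with day 8, 8 of 16 were called without the trend, 18 with the replicate block and 5 to 11 with single arrays left out. Over all tested probe sets that comparison called 37 without the trend and 127 with only the 2 days fitted, in place of 76, and 23 to 58 with single arrays left out. For day 30 with day 25, described without a test of the members, scan batch as a fixed block called 31 and chip lot 9 of all probe sets. The number of genes that met the rule was 89 with the brightest probe set of a gene taken first, 75 at a level of 11 or more, 37 at a difference of 3 or more, 113 with quantile normalization, 116 with median centring and 110 to 140 with single arrays left out (140 without day 4 replicate 1, of which 103 were shared). The causes were not tested.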
